A study of Mus musculus with 8 samples.

Results

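The cell cycle and mitosis genes examined here are 50 genes chosen by name, from the D-type cyclins that act at the start of the cycle to the kinesins of the dividing cell, and all 50 were found among the 56953 Ensembl genes of the count table. Their expression was measured by RNA-seq in brown adipose tissue (BAT), the fat depot that burns lipid to produce heat, of 4 control (CTR) and 4 cachectic (CAC) mice. All animals were wild-type C57BL/6J mice, male or female, and 8 to 10 weeks old. CTR mice received PBS alone, and CAC mice received 3000000 LLC cells, a mouse line of Lewis lung carcinoma, under the skin of the right flank. Mice were followed for 21 days, and only CAC animals that developed a tumour were kept. The comparison of CAC with CTR asks whether the BAT of tumour-bearing mice carries more or less RNA of the machinery of cell division. The labels do not give the sex of each animal, and each library comes from whole tissue.

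Progress through the cell cycle is driven by cyclin-dependent kinases (CDKs), each switched on by a cyclin partner. D-type cyclins with CDK4 and CDK6, then E-type cyclins with CDK2, release the E2F factors from the RB proteins and so start the genes of DNA replication. Cyclin A, the B-type cyclins and CDK1 then drive the cell into mitosis, where the anaphase-promoting complex (APC/C), charged by the ubiquitin-conjugating enzyme UBE2C, marks cyclin B and securin for destruction. Mature brown adipocytes do not divide, so in adult BAT these transcripts are generally read as a sign of the dividing cells among progenitors, endothelium and blood-derived cells.

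The 8 libraries held 1823167 to 4827956 counts, and 28.5% to 33.8% of them fell on mitochondrially encoded genes. Levels are given as CPM, the count of a gene per 1000000 counts of its library after TMM scaling. On that scale 3 counts, the limit that a count of 0 allows, correspond to 0.655 to 1.61 CPM. Between 33 and 44 of the 50 genes had a count in a given library. The 10 brown adipocyte markers, led by Ucp1 at 3555 to 4884 CPM, summed to 16344 to 18906 CPM without a split between the groups. Singly, 6 of these markers were higher and 4 lower in CAC, and 1 of the higher passed an adjusted p of 0.05 in edgeR. Neutrophil markers summed to 11.9 to 15.0 CPM in CTR and 172 to 439 CPM in CAC. Macrophage markers summed to 224 to 254 and 309 to 425 CPM. The 11 neutrophil markers include S100a8 and S100a9, and their share of the sum is not given here. The paper reports S100A9 protein in brown adipocytes and no significant difference in neutrophil numbers. The sum therefore does not measure the number of neutrophils. An adjusted p of 0.05 in edgeR was passed by 3 of 4 tested neutrophil and 2 of 9 tested macrophage markers, all higher in CAC. The share of all genes tested was 0.932%. The other genes of the 11 neutrophil markers did not pass the low-count filter. Genes this low in CTR could pass that filter through CAC alone, so the neutrophil share cannot be set against that percent. Erythroid markers summed to 6119 to 19081 CPM in CTR and 14493 to 43894 CPM in CAC, with overlap, and all 6 that were tested had the higher level in CAC (median log2 1.56), of which Slc4a1, the anion exchanger of red cells, passed an adjusted p of 0.05. In bulk tissue, fewer cells of a type and less RNA per cell cannot be told apart.

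Most of the cell cycle RNA was scarce. Of the 50 genes, 15 passed the low-count filter and were tested, 19 had more than 10 counts over all libraries but did not pass, 14 had 1 to 10 counts in all, and Aurkb and Bub1 had 0. None of the 15 tested genes differed between CAC and CTR at an adjusted p below 0.05 by edgeR's quasi-likelihood test, where the background is 0.932% of the 9876 genes tested. At an unadjusted p below 0.05, Ube2c was higher and Cdk6 was lower in CAC. These 2 of 15 genes are 13.3%, against 12.9% of all genes tested. CAC had the higher level in 9 of the 15 and the lower in 6 (median log2 fold change, log2FC, 0.11), and the smallest adjusted p was 0.294 for Ube2c.

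**Figure D1:**
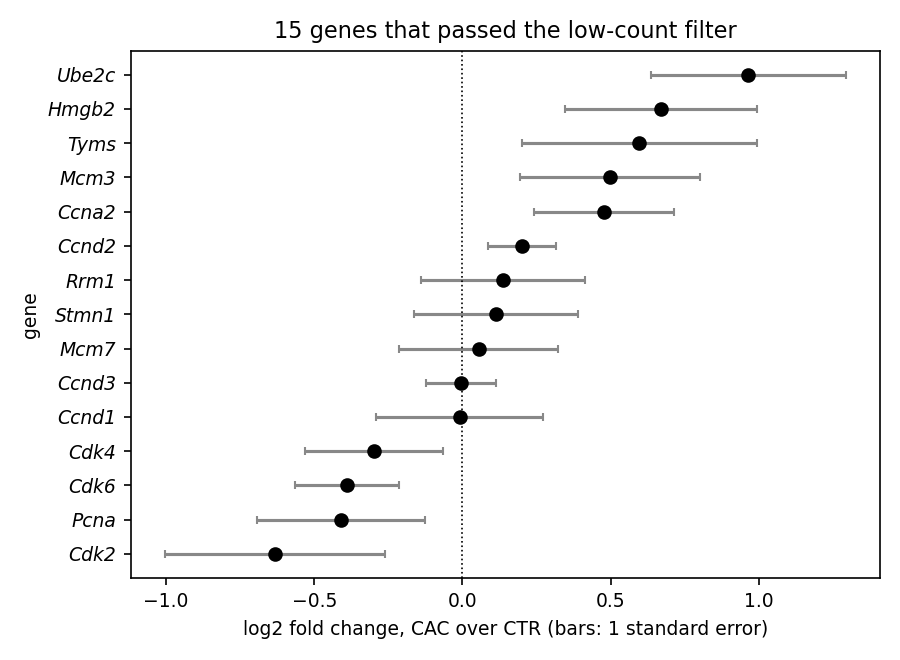
Log2FC of CAC over CTR for the 15 tested genes (points; n = 4 mice per group), with 1 standard error (SE) from edgeR's quasi-likelihood fit (bars). The values run from -0.63 for Cdk2 to 0.96 for Ube2c, and no gene passes an adjusted p of 0.05.

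Only Ube2c among the tested genes had all 4 CAC libraries above all 4 CTR libraries, a pattern found in 3.65% of all tested genes, and none had all CAC libraries below, against 3.4%. It was also the outlier in abundance, with 4290.5 counts in CTR and 6769 in CAC, where the other 49 genes together had 4341 and 3561 after rounding. Ube2c (ENSMUSG00000001403.14) lies on chromosome 2 of GRCm38, from 164769898 to 164778822 on the plus strand. Its level was 206, 377, 502 and 231 CPM in CTR replicates 1 to 4 and 506, 555, 770 and 731 CPM in CAC replicates 1 to 4. The lowest CAC library lay just above the highest CTR library. The log2FC was 0.96 (SE 0.33, adjusted p = 0.294 in edgeR). With the replicate number as a block it was 1.03 (adjusted p = 0.0273 in edgeR), although the labels do not say that these numbers pair the samples.

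Nearly every count of Ube2c was matched by a count of its neighbour on the opposite strand, Tnnc2 (ENSMUSG00000017300.10), which encodes the fast skeletal muscle form of troponin C, the calcium sensor of muscle contraction. Ube2c had 579, 1431, 1222.5 and 1058 counts in the CTR libraries, where Tnnc2 had 578, 1431, 1221.5 and 1056. In the CAC libraries Ube2c had 945.5, 1053.5, 2653 and 2117 counts, where Tnnc2 had 941.5, 1052.5, 2648 and 2116. The difference was 0 to 5 counts per library and 15 counts in all, or 0.136% of the Ube2c counts. That difference is a net value, since the table does not show how many reads each gene holds alone.

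**Figure D2:**
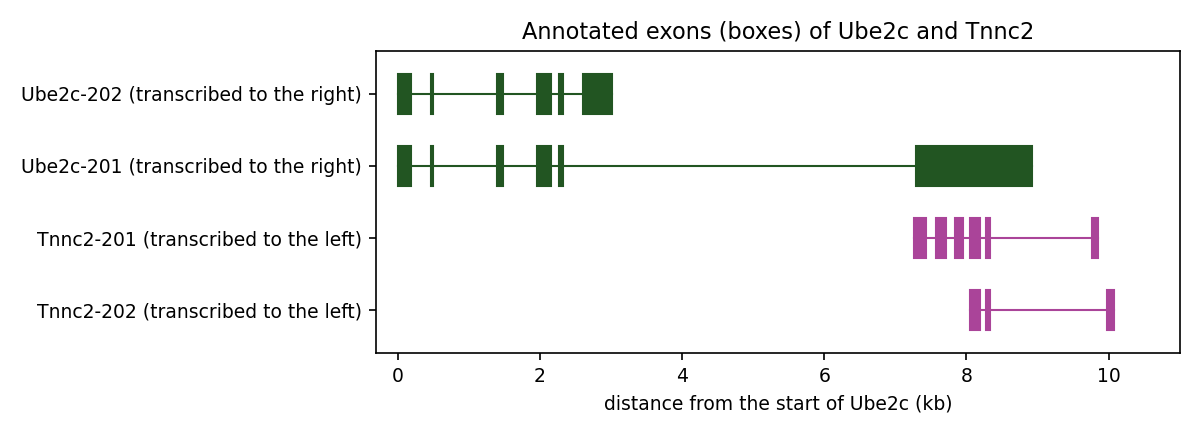
Exons (boxes) of the annotated transcripts of Ube2c (green) and Tnnc2 (purple) against the distance in kb from the start of Ube2c (GENCODE M21). The last exon of Ube2c-201 overlaps 5 of the 6 exons of Tnnc2-201, while Ube2c-202 ends before Tnnc2 begins.

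The annotation shows where these reads can be counted for both genes. Of the 2 annotated Ube2c transcripts, Ube2c-202 ends at 164772907, which is 4254 bases short of Tnnc2, and shares no exon base with it. The other, Ube2c-201, has a last exon of 1633 bases that covers 592 bases of 5 of the 6 exons of Tnnc2-201 on the opposite strand. The strand and overlap settings of the counting are not given in the sources used here, and without strand the reads of the 2 genes cannot be told apart. Nor can the table give a level of Ube2c from its other exons.

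Ube2c also followed genes of striated muscle from library to library. The genes whose log2 CPM correlated best with Ube2c over the 8 libraries were Tnnc2 (Pearson's r = 1.00), Tnni2 (0.996), Pvalb (0.991), Myoz2 (0.983) and Tnnt3 (0.978), which encode fast troponins, parvalbumin and, for Myoz2, a Z-disc protein known from slow and cardiac muscle. These r values are a description over 8 points that share groups and libraries. The 14 skeletal muscle markers other than Tnnc2 summed to 1609, 2816, 3506 and 1481 CPM in CTR and to 3030, 4435, 5458 and 5046 CPM in CAC. Ube2c amounted to 12.5% to 16.7% of that sum in every library. Of the 15 muscle markers with Tnnc2, 15 had the higher mean in CAC (median log2FC 0.97), against 4938 of the 9876 genes tested. An adjusted p of 0.05 was passed by 2 of the 15, Actn3 and Mybpc2, against 0.932% of all genes tested. The part of the muscle markers in the Ube2c difference was not tested.

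**Figure D3:**
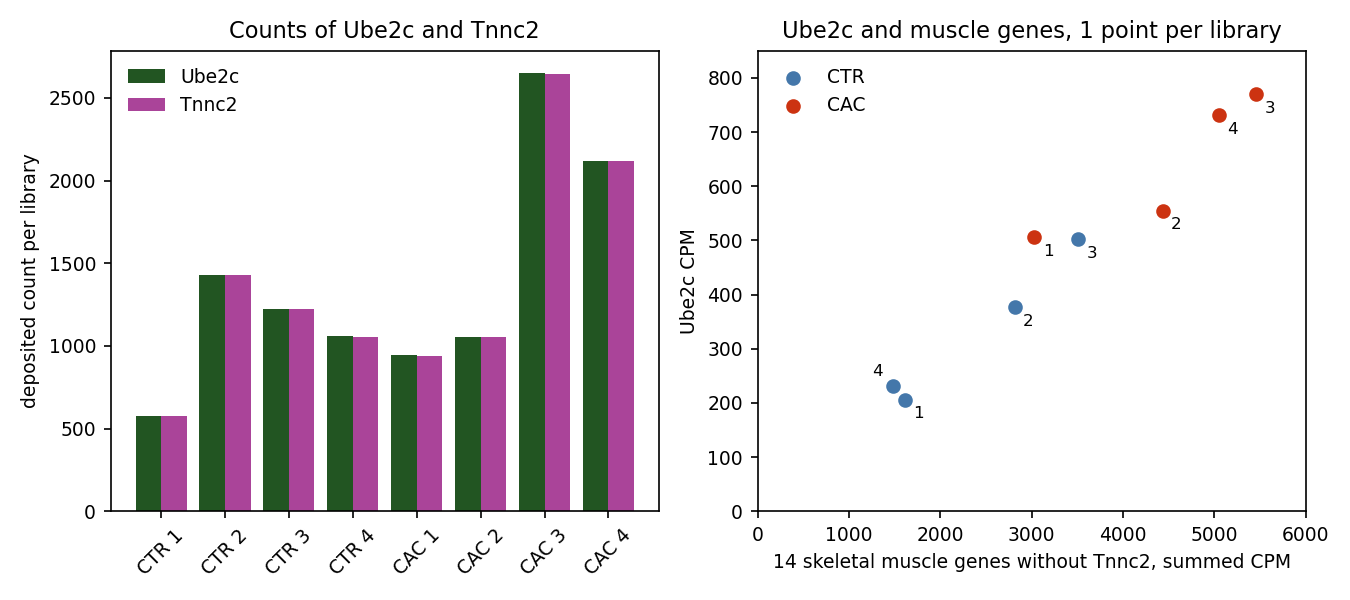
Left, deposited counts of Ube2c (green bars) and Tnnc2 (purple bars) in each library. Right, Ube2c in CPM against the summed CPM of 14 skeletal muscle genes without Tnnc2, with 1 point per library and the replicate number beside it. The paired bars differ by at most 5 counts, and CTR replicates 1 and 4 are lowest on both axes of the right panel.

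The other 49 genes summed to 318, 300, 323 and 333 CPM in CTR and to 317, 354, 405 and 311 CPM in CAC. The groups overlapped, and the log2 ratio of the group means was 0.12, and 0.04 without CAC replicate 3. With Ube2c in the sum the ratio became 0.61, so the sums below leave it out. D-type cyclins, Cdk4 and Cdk6 supplied 76.8% of the counts of these 49 genes.

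**Figure D4:**
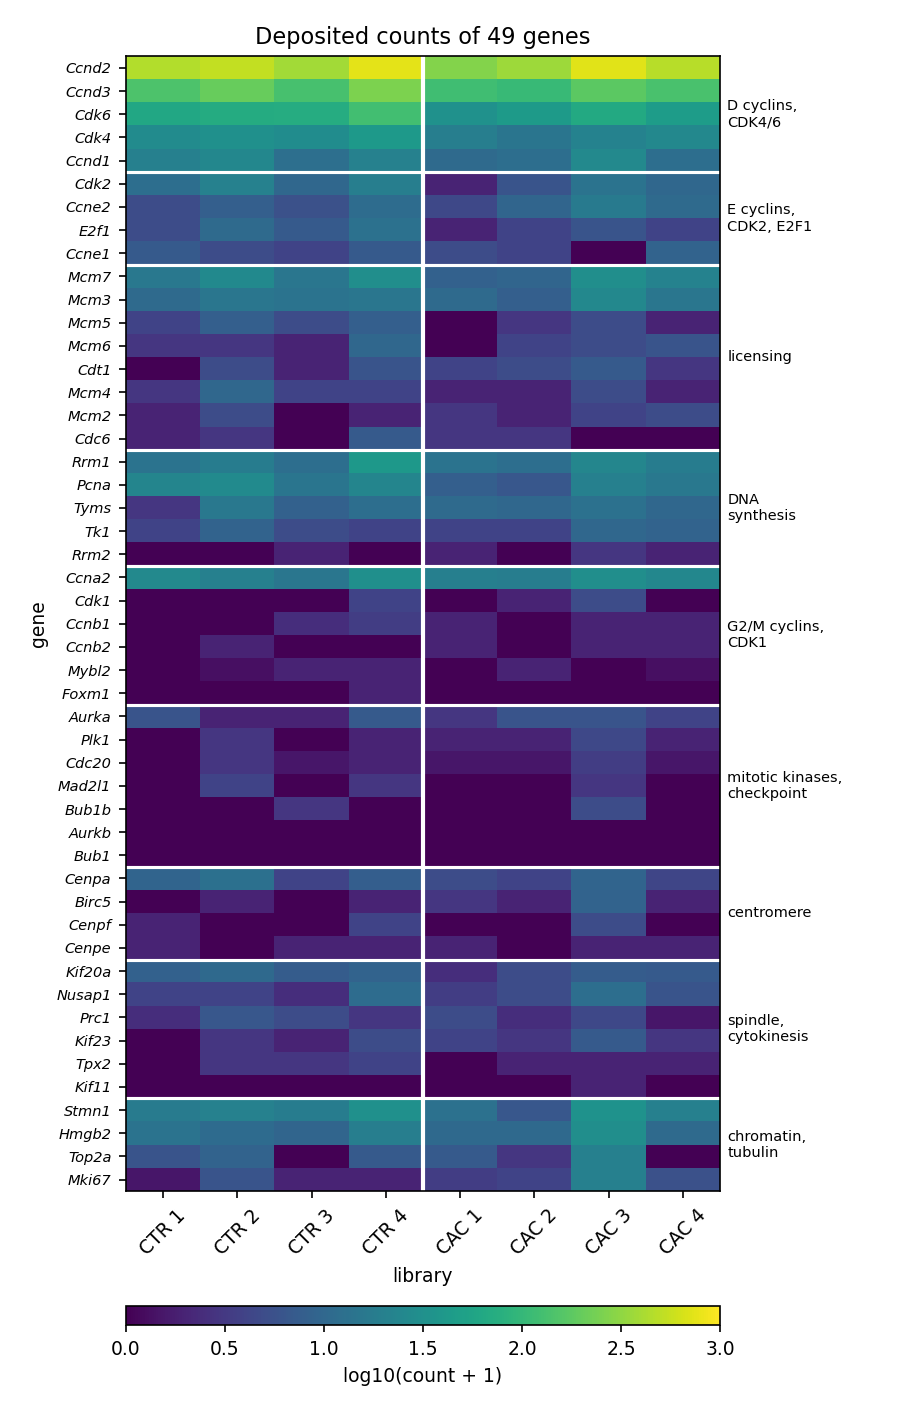
Deposited counts of 49 cell cycle genes (rows, grouped by role) in the 8 libraries (columns), coloured on a log10 scale after adding 1. Ccnd2 and Ccnd3 stand at the top of the scale, Ccna2 stands apart from the other G2/M genes, and CAC replicate 3 is brighter than the other CAC libraries for Top2a and Mki67.

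The D-type cyclins and their kinases, which respond to growth signals at the start of the cycle and also occur in cells that do not divide, were the well-measured group. Ccnd2, which encodes cyclin D2, was the most abundant, at 162, 141, 157 and 163 CPM in CTR and 147, 191, 212 and 164 CPM in CAC. The groups overlapped, and its log2FC was 0.20 (SE 0.11, adjusted p = 0.481 in edgeR) and 0.10 without CAC replicate 3. Per kilobase of exon, Ccnd2 had 17.8 CPM, above Ccnd3 with 6.13 and Ccnd1 with 1.18. Ccnd3 (cyclin D3) measured 51.3, 52.2, 55.1 and 56.3 CPM in CTR and 63.2, 54.8, 50.8 and 46.9 CPM in CAC. Its CAC libraries lay on both sides of the CTR libraries, and the log2FC was -0.01 (SE 0.12). Ccnd1 (cyclin D1), at 6.77, 6.33, 4.93 and 4.37 CPM in CTR and 5.35, 5.79, 6.96 and 3.80 CPM in CAC, likewise had a log2FC of -0.01 (SE 0.28). The sign of these last values turned in some fits that left out 1 library, so neither has a direction.

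The 2 kinase partners of the D-type cyclins were lower on average in CAC, without passing the adjusted threshold. Cdk6 measured 22.1, 18.5, 28.8 and 26.9 CPM in CTR and 17.1, 22.1, 19.2 and 15.2 CPM in CAC. Although 2 of the CAC libraries reached the range of CTR, the log2FC was -0.39 (SE 0.18, adjusted p = 0.347 in edgeR). Cdk4 measured 9.62, 8.18, 11.5 and 8.73 CPM in CTR and 9.64, 7.37, 5.80 and 8.28 CPM in CAC. The log2FC was -0.30 (SE 0.23, adjusted p = 0.639 in edgeR) and -0.16 without CAC replicate 3, and the exons of Cdk4 share 641 bases with Tspan31 on the other strand. In all, 14 of the 50 genes share exon bases with another protein-coding gene, among them Ccnd1 with LTO1 (1100 bases), Ccnd3 with Bysl (361) and Mcm7 with Ap4m1 (321). As a group, the 5 genes summed to 226 to 259 CPM in CTR and 239 to 295 CPM in CAC.

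Genes of the G1/S step were near the limit of the test. Cdk2, the kinase of cyclins E and A, had 9 to 20 counts in the CTR libraries and 1 to 13 in the CAC libraries, and a log2FC of -0.63 (SE 0.37, adjusted p = 0.504 in edgeR). Without CAC replicate 1, which held 1 count, the log2FC was -0.38, and without CAC replicate 3 it was -0.92. Its level was 3.70 to 5.27 CPM in CTR and 0.535 to 3.77 CPM in CAC, with 1 CAC library inside the CTR range. E2f1, the transcription factor released from RB, was not tested and averaged 2.29 CPM in CTR (32 counts) and 1.15 CPM in CAC (12 counts). Ccne2 (cyclin E2) averaged 1.77 and 3.61 CPM, with 26 and 38 counts, and Ccne1 (cyclin E1) 1.43 and 1.62 CPM, with 19 and 15 counts, and neither was tested. Together the 4 genes summed to 8.91 to 10.8 CPM in CTR and 5.35 to 10.4 CPM in CAC.

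The replication licensing genes load and start the MCM helicase at origins. Mcm7 measured 5.34, 6.86, 5.75 and 6.33 CPM in CTR and 4.28, 4.21, 8.71 and 6.90 CPM in CAC, with a log2FC of 0.06 (SE 0.27) that was -0.20 without CAC replicate 3. Mcm3 measured 3.56, 3.69, 5.34 and 3.06 CPM in CTR and 5.35, 3.69, 6.96 and 4.83 CPM in CAC, with a log2FC of 0.50 (SE 0.30, adjusted p = 0.525 in edgeR) that was 0.29 without CAC replicate 3. The CAC libraries of Mcm7 spread to both sides of the CTR libraries, and those of Mcm3 reached down into them. The other 6 licensing genes were not tested and had 13 counts (Cdc6) to 28 counts (Mcm5) over all libraries. Mcm4 averaged 1.24 CPM in CTR and 0.642 CPM in CAC, and Mcm5 1.52 and 0.640 CPM, whereas the loading factor Cdt1 averaged 0.639 and 1.54 CPM. All 8 genes summed to 12.1 to 17.9 CPM in CTR and 13.9 to 21.8 CPM in CAC, a log2 ratio of 0.13 that was -0.03 without CAC replicate 3, 0.03 without CTR replicate 1 and 0.20 to 0.22 without CAC replicate 1 or CTR replicate 2.

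The DNA synthesis genes supply and copy the bases of the new strand. Rrm1, the large subunit of ribonucleotide reductase, which makes deoxynucleotides, measured 4.63, 4.48, 4.52 and 8.51 CPM in CTR and 6.96, 5.79, 6.67 and 5.87 CPM in CAC (log2FC 0.14, SE 0.28). CTR replicate 4 lay above all CAC libraries, and the other 3 CTR libraries lay below them. The log2FC was 0.48 without CTR replicate 4, 0.06 without CTR replicate 1 or 3 and 0.02 without CTR replicate 2. Pcna, the sliding clamp of DNA polymerase, measured 7.84, 6.86, 5.75 and 4.80 CPM in CTR and 3.75, 3.16, 5.80 and 5.18 CPM in CAC (log2FC -0.41, SE 0.28, adjusted p = 0.581 in edgeR). Its groups overlapped, although both the highest levels were in CTR and both the lowest in CAC. Tyms (thymidylate synthase) averaged 2.59 CPM in CTR and 4.17 CPM in CAC, with a log2FC of 0.60 (SE 0.40, adjusted p = 0.559 in edgeR), which was 0.33 without CTR replicate 1, where it had 2 counts. Rrm2, the subunit of ribonucleotide reductase that is made in S phase, had 5 counts in all, against 144 for Rrm1. The licensing and synthesis genes together summed to 26.4 to 35.3 CPM in CTR and 30.0 to 40.9 CPM in CAC, a log2 ratio of 0.13, with 0.03 without CAC replicate 3, 0.06 without CTR replicate 1 and 0.20 without CTR replicate 2.

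Among the G2/M genes, Ccna2 (cyclin A2) alone passed the filter. It measured 8.55, 5.01, 5.75 and 6.55 CPM in CTR and 9.64, 9.48, 8.71 and 8.28 CPM in CAC. CAC replicate 4 fell just below CTR replicate 1, and the other CAC libraries lay above all CTR libraries. The log2FC was 0.48 (SE 0.24, adjusted p = 0.403 in edgeR). Like Ube2c, Ccna2 shares exon bases (510) with a gene of the other strand, Exosc9, a subunit of the RNA exosome. Exosc9 had 24.5, 22, 17 and 31 counts in CTR and 19.5, 18.5, 28.5 and 24.5 in CAC, where Ccna2 had 24.5, 19, 14 and 30 and then 18.5, 17.5, 29.5 and 23.5. These differ by at most 3 counts in a library, and without strand the reads of these 2 genes cannot be told apart either.

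Without Ccna2, the engine of mitotic entry was barely detected. Cdk1, the kinase that starts mitosis, had a total of 8 counts, with 3 in CTR replicate 4, 1 in CAC replicate 2, 4 in CAC replicate 3 and 0 in the other libraries. Ccnb1, its cyclin B1 partner, had 7 counts, with 1.5 in CTR replicate 3, 2.5 in CTR replicate 4, 1 each in CAC replicates 1, 3 and 4 and 0 elsewhere. In the libraries where either gene had a count of 0, that allows a level of up to 0.791 to 1.61 CPM, for counting error only. Ccnb2 had 4 counts, Mybl2, a factor of the complex that turns on G2/M genes, 3.66, and Foxm1, the forkhead factor of the same genes, 1. With Ccna2, these 6 genes summed to 8.55, 5.27, 6.99 and 8.08 CPM in CTR and to 10.7, 10.5, 10.4 and 8.98 CPM in CAC. Every CAC library lay above every CTR library, and the log2 ratio was 0.49, with 0.37 to 0.58 when 1 library was left out. The 3.65% of single tested genes with that order is no reference for a sum. Of the counts of these 6 genes, 98 in CTR and 102 in CAC after rounding, Ccna2 held 87.5 and 89, which nearly equal those of Exosc9.

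The kinases and checkpoint genes of mitosis were equally low, and none was tested. Aurka, the spindle pole kinase, had 28 counts, Plk1 9.5, the APC/C activator Cdc20 7.5, the checkpoint genes Mad2l1 and Bub1b 7 and 6, and Aurkb and Bub1 0. Of the centromere genes, Cenpa, the histone of the centromere, had 48.2 counts, at a mean of 2.19 CPM in CTR and 1.77 CPM in CAC, whereas Cenpf had 8 and Cenpe 6. Among spindle genes, Kif11, the kinesin that separates the spindle poles, had 1 count, Tpx2 10, Kif23 20, Prc1 22.5 and Nusap1 40.5. Kif20a had 49.5 counts, and it shares 1271 exon bases with Cdc23 on the other strand, which had 82.5.

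Birc5 (survivin), a subunit of the chromosomal passenger complex, was the 1 untested gene with every CAC library above every CTR library, and it is named for that, after its values were seen. It had 0, 1, 0 and 1 counts in CTR and 2, 1, 8 and 1 in CAC. That order rests on single reads, since CTR replicate 2 and CAC replicates 2 and 4 all had 1 count. Among all tested genes 3.65% had this order, and no share is given here for untested genes.

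Mki67 and Top2a are the usual markers of dividing cells. Mki67 (Ki-67), which coats mitotic chromosomes, had 0.5, 5, 1 and 1 counts in CTR and 2.5, 3, 19.5 and 4.5 in CAC. Top2a, the topoisomerase that untangles replicated DNA, had 5, 8, 0 and 6 counts in CTR and 6, 2, 19 and 0 in CAC. CAC replicate 3 thus held most of the CAC counts of both genes. After rounding, Mki67 measured 0, 1.32, 0.411 and 0.218 CPM in CTR and 1.07, 1.58, 5.80 and 1.38 CPM in CAC. CAC replicates 2 and 4 thus also lay above the CTR libraries, by little, and CAC replicate 1 lay inside their range. For Top2a, CAC replicate 1 (3.21 CPM) also lay above the CTR libraries (at most 2.11 CPM), and CAC replicates 2 and 4 lay within their range. With no filter on low counts, Mki67 was the 1 of 48 genes with an adjusted p below 0.05, against 1.48% of all genes in that fit, with a log2FC of 2.30 (SE 0.62, adjusted p = 0.0195 in edgeR). Without CAC replicate 3 the log2FC was 1.29 (adjusted p = 0.699 in edgeR), and over the 8 fits that each left out 1 library the adjusted p ranged from 0.00535 to 0.699.

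Of the remaining genes that accompany division, Hmgb2, a chromatin protein, measured 4.63, 2.64, 3.29 and 3.93 CPM in CTR and 5.35, 5.27, 8.41 and 3.45 CPM in CAC. CAC replicate 4 lay inside the CTR range and CAC replicate 3 was highest. The log2FC was 0.67 (SE 0.32, adjusted p = 0.387 in edgeR) and 0.33 without CAC replicate 3. Stmn1, the tubulin-binding protein stathmin, measured 5.70, 5.27, 6.99 and 6.77 CPM in CTR and 6.42, 3.16, 9.29 and 6.56 CPM in CAC. Its CAC libraries held both the lowest and the highest value. The log2FC was 0.11 (SE 0.28), and -0.16 without CAC replicate 3.

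Summed over 25 G2/M and mitosis genes, which leave out Ube2c, the level was 20.3, 20.3, 16.4 and 20.3 CPM in CTR and 26.2, 25.3, 41.2 and 18.3 CPM in CAC. CAC replicate 4 lay inside the CTR range, and the log2 ratio was 0.52 with all libraries and 0.27 without CAC replicate 3. The 19 of these genes that share no exon with another protein-coding gene summed to 7.13, 9.76, 5.75 and 8.95 CPM in CTR and 12.3, 10.5, 25.8 and 6.21 CPM in CAC. Their log2 ratio was 0.80, and 0.29 without CAC replicate 3. These sums were formed after the counts were seen and have no test. In CAC replicate 3 the macrophage markers (425 CPM) and the neutrophil precursor markers (3.77 CPM) were also at their highest, as were those of skeletal muscle (6227 CPM) and of adipocyte progenitors and fibroblasts (760 CPM), erythroid markers were at 37540 CPM, within the range of the other CAC libraries, and T, NK and B cell markers were at 2.61 CPM, within their CTR range. Other marker sums were not raised in CAC replicate 3. Endothelial markers, at 1175 CPM, lay below their CTR range of 1252 to 1284 CPM. Brown adipocyte markers were at their lowest (16344 CPM), and neutrophil markers (290 CPM) lay within the range of the other CAC libraries. Of 7 neutrophil precursor markers, Mpo, Ctsg, Ms4a3 and Fcnb had 0 or 1 count in every library. The part of these cells in the sums was not tested.

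**Figure D5:**
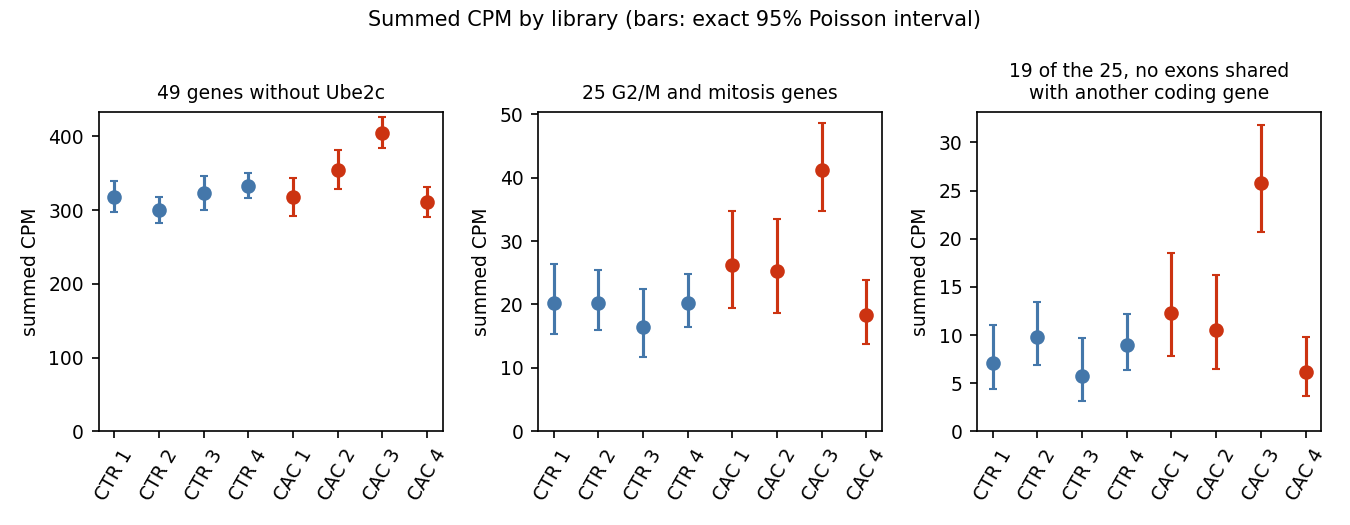
Summed CPM in each library (points; blue CTR, red CAC) with exact 95% Poisson intervals, which cover counting error only, for 49 genes without Ube2c, for the 25 G2/M and mitosis genes, and for 19 of these without shared exons. CAC replicate 3 is the highest library in each panel, and CAC replicate 4 lies among the CTR libraries for the 2 smaller sums.

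The promoters of these genes were compared by phase of the cycle, since the choice of genes did not use their sequence. RefSeq promoters of GRCm38.p6, taken from 250 bases before to 50 bases after a transcript start, were matched for 40 of the 50 genes (43 promoters). Aurkb, Ccna2, Ccnd1, Ccnd2, Ccne2, Foxm1, Kif20a, Mcm4, Stmn1 and Tpx2 were not matched. The matched promoters were searched on both strands for the cell cycle gene homology region (CHR), which in textbook accounts is bound by the DREAM and MuvB complexes, for the CCAAT box bound by NF-Y, and for the E2F core of replication genes. The CHR was searched as TTTGAA and as its variant TTCGAA, which reads the same on both strands and was counted once. The E2F core was searched as the letters GGCG with GGAA directly after them, or with CGAA in that place.

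Of the 22 promoters of G2/M and mitosis genes with Ube2c, 72.7% held a CHR and 81.8% a CCAAT box, against 19.2% and 37.4% of all 32851 promoters in the table. Both elements together stood in 72.7% of them and in 7.52% of all promoters. None held the E2F core, which 2.7% of all promoters held. In the 13 promoters of licensing and DNA synthesis genes the E2F core stood in 38.5% and a CHR in 15.4%, while the CCAAT box stood in 69.2%. The 4 promoters of Ccnd3, Cdk4 and Cdk6 held neither a CHR nor the E2F core, and 25% held a CCAAT box. A match is a description of letters in these windows and says nothing of binding in BAT.

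The stretches below show the arrangement in Ube2c, Cdk1, Top2a, Kif11 and Mki67, with Mcm6 as an example of the S phase genes and Cdk4 as one with no match. Each reads 5′ to 3′ on the strand of its gene, and capitals mark the CHR, CCAAT and E2F matches on either strand.
Ube2c, chr2:164769829-164769909, plus strand: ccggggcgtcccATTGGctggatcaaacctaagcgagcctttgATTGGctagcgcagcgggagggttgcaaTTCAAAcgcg
Cdk1, chr10:69352913-69353012, minus strand: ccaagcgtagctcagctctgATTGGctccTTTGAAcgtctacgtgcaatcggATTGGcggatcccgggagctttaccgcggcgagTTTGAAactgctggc
Top2a, chr11:99024190-99024289, minus strand: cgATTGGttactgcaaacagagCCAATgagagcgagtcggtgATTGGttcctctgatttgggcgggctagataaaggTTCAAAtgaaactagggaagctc
Kif11, chr19:37376282-37376381, plus strand: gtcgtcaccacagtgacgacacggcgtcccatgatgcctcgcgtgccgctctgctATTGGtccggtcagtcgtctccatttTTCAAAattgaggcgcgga
Mki67, chr7:135716460-135716579, minus strand: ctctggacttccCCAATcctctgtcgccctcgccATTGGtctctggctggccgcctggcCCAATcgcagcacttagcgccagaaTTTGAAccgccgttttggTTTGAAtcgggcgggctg
Mcm6, chr1:128359726-128359825, minus strand: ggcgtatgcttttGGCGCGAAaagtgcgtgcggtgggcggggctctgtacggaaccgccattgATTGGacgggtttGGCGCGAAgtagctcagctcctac
Cdk4, chr10:127063435-127063534, plus strand: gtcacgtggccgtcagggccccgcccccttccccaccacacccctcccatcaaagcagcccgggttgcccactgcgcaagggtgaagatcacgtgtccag

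In Ube2c, Cdk1, Top2a and Kif11 the CHR nearest the start began 29, 15, 23 and 19 bases before it, with CCAAT boxes farther upstream. Mki67 carried its CHR pair at 116 and 98 bases behind 3 CCAAT boxes. Mcm6 carried 2 E2F cores with a CCAAT box between them. Among these genes Ube2c had 11059.5 counts and Kif11 had 1, although both share the CHR and CCAAT arrangement, and the Ube2c counts are those matched by Tnnc2.

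Genes around this machinery that are not among the 50 were taken from 6 lists of CDK inhibitors, the RB and DREAM complexes, the APC/C, replication factors, cohesin and condensin, and other cyclins and CDK regulators. Of 113 genes, 67 were tested, of which 36 had the higher and 31 the lower level in CAC, and their median log2FC was 0.04, against 0.00 over all genes tested. Cdkn1c, which encodes the CDK inhibitor p57, was the 1 gene with an adjusted p below 0.05, against 0.932% of all genes tested. Its level was 36.3, 29.3, 40.7 and 40.6 CPM in CTR and 13.9, 10.5, 18.0 and 16.9 CPM in CAC. The CAC libraries all lay below the CTR libraries, and Cdkn1c fell by 1.26 on the log2 scale (SE 0.17, adjusted p = 0.00024 in edgeR).

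No other gene of the 6 lists passed the adjusted threshold. Among the CDK inhibitors, and named after their values were seen, Cdkn1a (p21) measured 47.1 ± 3.45 CPM in the CTR group and 69.1 ± 17.4 CPM in the CAC group (SD, n = 4), with a log2FC of 0.54 (adjusted p = 0.083 in edgeR), and Cdkn2a (p16 and p19ARF) had 0 counts in all libraries. Of the 14 tested replication factors, Lig1, the ligase that seals Okazaki fragments, measured a mean of 6.79 CPM in CTR and 13.0 CPM in CAC (n = 4; log2FC 0.91, SE 0.22, adjusted p = 0.056 in edgeR). Gmnn (geminin), which blocks licensing, had a log2FC of -0.70 (adjusted p = 0.296 in edgeR). In the APC/C list, 8 of 14 genes were higher and 6 lower, and the subunits Cdc26 and Anapc16 had log2FCs of -0.98 and -0.35 (adjusted p = 0.112 and 0.263 in edgeR). Cohesin and condensin genes had higher levels in CAC for 13 of the 15 tested (median 0.13), and the smallest p belonged to the cohesin loader Nipbl at 0.29 and the condensin subunit Ncapd3 at 0.61 (adjusted p = 0.249 and 0.338 in edgeR). In the RB and DREAM list Lin37 had a log2FC of 0.65 and Rb1 of -0.33 (adjusted p = 0.313 and 0.419 in edgeR). Of the other regulators, the phosphatase Cdc25b measured 6.60 ± 2.16 CPM in the CTR group and 11.2 ± 1.09 CPM in the CAC group (SD, n = 4; log2FC 0.73, adjusted p = 0.179 in edgeR), and Ccnh (cyclin H) had a log2FC of -0.49 (adjusted p = 0.361 in edgeR).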

How the data were processed

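RNA of BAT from 4 CTR and 4 CAC mice was sequenced by the NEGEDIA Digital mRNA-seq service, single-end. Per the labels, the authors checked reads with FastQC 0.11.9, aligned them to mm10 with HISAT2 2.2.1 and counted them with featureCounts with its multi-mapping option. The deposited table holds expected counts for 56953 Ensembl genes, without normalization and with fractions of reads. A table of normalized values was not used here. Of the gene IDs, 91.4% matched GENCODE M21 (GRCm38) without the version.

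Counts were rounded, filtered with filterByExpr and tested in edgeR 4.0.16 (R 4.3.3) by the robust quasi-likelihood test with TMM factors and Benjamini-Hochberg adjustment over 9876 genes, at a threshold of 0.05. In simulated CAC and CTR libraries of those 9876 genes, it called 73 of 100 genes changed by a log2 of 1, 97 of 100 changed by 2 and 9 of 9676 unchanged genes. The changed genes were drawn at random from all 9876, so these shares do not describe the cell cycle genes, most of which had low counts. Replicates are separate animals as labelled, so p-values measure the spread between these 8 libraries. The 50 genes and all lists were chosen with earlier results of these data known. Values per library are given for Ube2c, the 12 genes with the most counts after it, genes with an unadjusted p below 0.05 and Mki67, Top2a, Cdk1 and Ccnb1, and of each other list the genes below an adjusted p of 0.05 or the 2 with the smallest p. Genes most like Ube2c were ranked by Pearson's r of log2 CPM after adding 1. As alternatives, the fit was run in DESeq2 1.42.0, with scaling by upper quartile or library size, with no filter, with at least 10 counts in every library, with decimals cut off, with a replicate block and without each library in turn, and other sums were taken. Leaving out libraries without a filter, leaving out genes with shared exons and the sum over 25 genes were chosen after seeing the data. Python 3.11.15, pandas 2.3.3, numpy 2.4.6, scipy 1.17.1 and matplotlib 3.10.9 were used.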

Additional observations from a re-analysis of the deposited data

Results flagged for a closer look

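In 5 of 54 sets of 4 libraries examined, 1 library stood apart from the other 3 by Dixon's criterion, where chance gives about 1 in 20, or 2.7 sets. In CTR, Cdk2 was highest in replicate 2 at 5.27 CPM, where the others had 3.70 to 3.93 CPM, and Rrm1 was highest in replicate 4 at 8.51 CPM, where the others had 4.48 to 4.63 CPM. The 25 G2/M and mitosis genes were lowest in CTR replicate 3 at 16.4 CPM, where the other CTR libraries all had 20.3 CPM. In CAC, the E-type cyclins with Cdk2 and E2f1 were lowest in replicate 1 at 5.35 CPM, where the others had 9.87 to 10.4 CPM. The G2/M cyclins with Cdk1, Foxm1 and Mybl2 were lowest in CAC replicate 4 at 8.98 CPM, where the others had 10.4 to 10.7 CPM.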

How the results depend on the processing

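No alternative with the low-count filter and without a block gave a cell cycle gene with an adjusted p below 0.05, and all 8 fits without 1 library gave 0. The labels do not say that the replicate numbers pair the samples, and deviations of same-numbered libraries correlated at 0.031, -0.023, 0.028 and 0.036. Such low values cannot tell whether same-numbered animals shared a batch. With the number as a replicate block, Ube2c had a log2 fold change of 1.03 (adjusted p = 0.0273) and was the 1 gene of the 50 called, out of 140 genes in all. Over the fits without 1 library the Ube2c value ranged from 0.80 to 1.24, and its adjusted p ranged from 0.0273 to 0.477 over all alternatives. The count of all genes called, 92 in the report, was 351 with no filter and ranged from 42 (without CTR replicate 1) to 135 (without CTR replicate 3) when 1 library was left out, with 60 without CAC replicate 3. With no filter, 1 of the 50 genes was called, and 0 to 2 when 1 library was also left out. The number with an unadjusted p below 0.05, 2 in the report, was 1 with DESeq2, 5 with no filter and 0 (without CTR replicate 4) to 5 (without CTR replicate 1) when 1 library was left out, with 1 without CAC replicate 3 or 4. The number of other pathway genes called, 1 in the report, was 3 with no filter and 2 with at least 10 counts in every library. Mki67 without a filter had a log2 fold change of 1.98 without CTR replicate 1, 1.99 without CTR replicate 4 and 1.29 without CAC replicate 3, and lost its call in each, with a range from 1.29 to 3.46. Signs turned for Ccnd1 (0.033 with decimals cut off, and -0.19 to 0.16 without 1 library), Ccnd3 (-0.080 to 0.062), Mcm7 (-0.20 to 0.18) and Stmn1 (-0.16 to 0.30). The log2 ratio of the 49 genes, 0.12, was 0.61 with Ube2c, 0.40 over the genes under the filter, 0.24 without the D-type cyclins, Cdk4 and Cdk6, 0.05 without Ccnd2, and 0.04 to 0.17 without 1 library. The causes of these shifts were not tested. The 35 untested genes had means at or below 3.61 CPM in either group.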
